A study of Homo sapiens with 6 samples.

Results

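The probes for both strands of the miR-143 and miR-145 precursors were examined in Panc-1, a long-established cell line derived from a pancreatic ductal adenocarcinoma (PDAC). The members were chosen by name: hsa-miR-143-3p, hsa-miR-143-5p, hsa-miR-145-5p and hsa-miR-145-3p (written below without the species prefix), which are 4 of the 2565 miRNA probes on the array, with 1 spot each. RNA from cells that received 0 ng/mL TGF-β (control) was on 3 arrays, and RNA from cells that received 10 ng/mL TGF-β, a secreted cytokine, was on the other 3. Both groups were collected at 72 h and carried no other agent or genetic change named in the labels. Nothing in the labels says whether the 3 arrays of a group came from separate cultures, so the p-values measure only the spread between these arrays, which may be technical. The 3 control arrays shared 1 slide and the 3 TGF-β arrays another, so treatment and slide cannot be told apart.

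miRNAs are short RNAs that guide Argonaute proteins to messenger RNAs, mostly through pairing of the seed, bases 2 to 8 of the mature strand. One strand of each hairpin precursor, the guide, is usually retained, and the other, the passenger, is usually degraded. For miR-143 the guide is the 3p strand, and for miR-145 it is the 5p strand. Both precursors are made from 1 primary transcript that is abundant in smooth muscle and in fibroblast-like stromal cells, where TGF-β signalling and the serum response factor with its partner myocardin are known activators. KLF4 and KLF5 are known targets of miR-145, and ELK1 is a known target of miR-143. Loss of both miRNAs has often been described in epithelial tumours.

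The mature sequences are shown because the seed sets which messages each strand can pair with. All 4 names matched the RefSeq miRNA table of GRCh38.p14, and the capitals mark the seed.
miR-143-3p: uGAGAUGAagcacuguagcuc
miR-143-5p: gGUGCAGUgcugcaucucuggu
miR-145-5p: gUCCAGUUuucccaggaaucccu
miR-145-3p: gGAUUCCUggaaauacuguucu
No seed was shared among these 4 strands. The MIR143 gene lies on the plus strand at chr5:149428918-149429023, with the miR-143-5p strand at 149428944 to 149428965 and the miR-143-3p strand at 149428978 to 149428998. The MIR145 gene lies on the same strand at chr5:149430646-149430733, with the miR-145-5p strand at 149430661 to 149430683 and the miR-145-3p strand at 149430699 to 149430720. Only 1622 bases separate the hairpin genes, and both are inside CARMN, a long non-coding RNA gene at chr5:149406845-149432836.

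**Figure D1:**
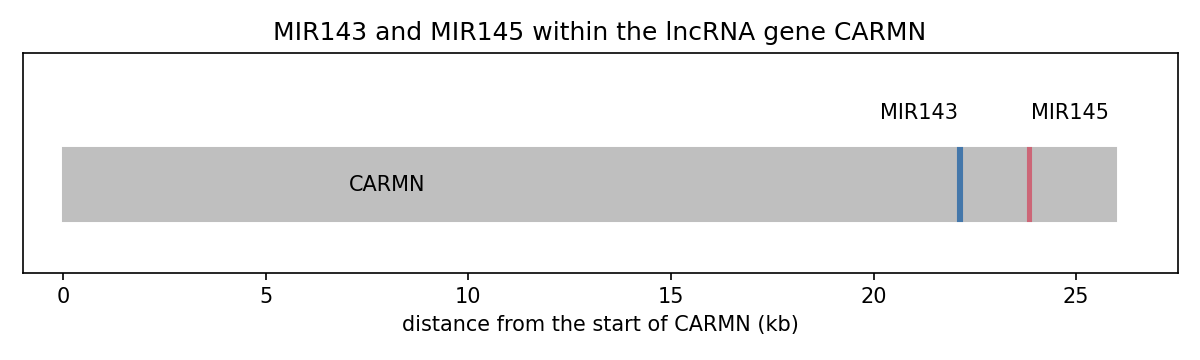
Map of the CARMN gene (grey bar) with MIR143 (blue) and MIR145 (red) drawn to scale, with the distance from the start of CARMN in kb on the horizontal axis. Both hairpin genes are in its last part, with 1622 bases between them.

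Each array held 3200 spots, of which 320 were blank. A probe was counted as detected where its signal, in the scanner's linear intensity units, exceeded the mean of the blank spots by 2 of their SDs, with 5% of the blanks left out at each end. That limit was 19.5 to 22.8 units, while the median miRNA signal was 20.4 to 24.1 units, so most of the array was read close to background. Between 59.7% and 62.5% of the miRNA probes were detected on the other 5 arrays and 69.7% on TGF-β replicate 2. Of the blank spots themselves, all 320 counted, 5.62% to 7.81% lay above the limit, which is the rate at which a spot with no probe passes. The number of arrays and this background, not a read depth, limit the precision.

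The miR-143 guide strand was detected in both groups, the miR-145 guide strand in most arrays, and the passenger strands in few. Of the 24 values of the 4 members, 15 were above the limit of 2 blank SDs and 8 above a limit of 3. miR-143-3p passed on 6 arrays, miR-145-5p on 5, miR-143-5p on 3 and miR-145-3p on 1. At 3 SDs the counts were 5, 3, 0 and 0, respectively.

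**Figure D2:**
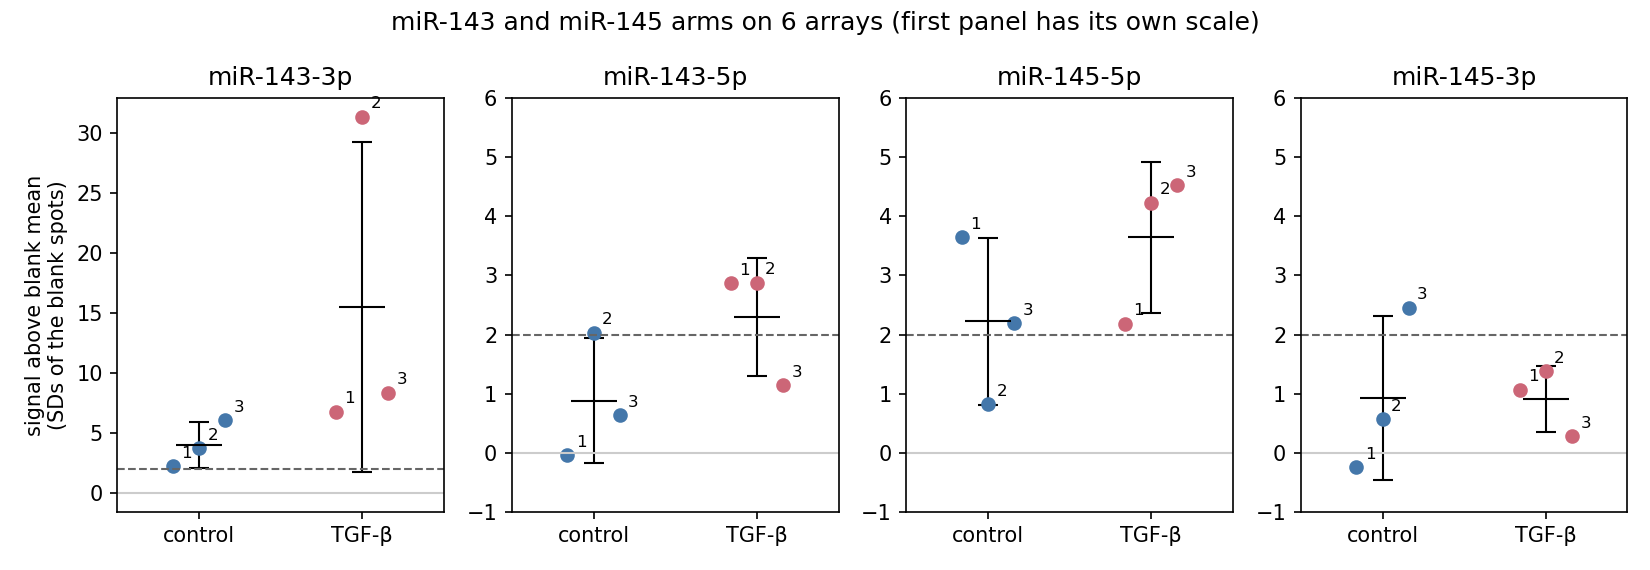
Signal of each strand above the blank mean, in SDs of the array's blank spots, for the 3 control arrays (blue) and the 3 TGF-β arrays (red), with replicate numbers. Black bars are the mean ± SD, the dashed line is the detection limit of 2 SDs, and the first panel has its own scale. TGF-β replicate 2 stands apart for miR-143-3p at 31.3 SDs, and most points of both passenger strands lie near or under the limit.

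hsa-miR-143-3p (MIMAT0000435), the guide of its hairpin, gave signals of 19.7, 21.4 and 26.0 units in control replicates 1, 2 and 3. In TGF-β replicates 1, 2 and 3 the signals were 23.9, 35.3 and 26.5 units. TGF-β replicate 2 was the brightest and control replicate 1 the dimmest, and control replicate 3 exceeded TGF-β replicate 1. In blank SDs, the control arrays were 2.24, 3.72 and 6.06 above the blank mean. The TGF-β arrays were 6.78, 31.3 and 8.35 above it. On control replicate 1, 16 of the 320 blank spots (5%) were as bright as the miR-143-3p spot or brighter, and on control replicate 2 there were 4 (1.25%). On the other 4 arrays it outshone every blank spot. The signal above the blank mean averaged 2.81 ± 1.65 units in control cells and 8.89 ± 6.66 units in TGF-β cells (SD, n = 3), with overlap between the groups (exact permutation test, 2-sided, p = 0.2). The deposited processed values, which subtract the same blank mean and scale each array to a median of 25 over its detected miRNAs, were 6, 10 and 16 under control conditions, against 19, 79 and 22 with TGF-β. On that scale the groups were apart, with the control value of 16 next to the TGF-β value of 19.

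After the blank mean was subtracted, values under 1 unit were set to 1, and the log2 values of all miRNA probes were quantile normalized. miR-143-3p was then at 0.75, 1.30 and 1.99 in the control arrays and at 2.26, 3.996 and 2.48 in the TGF-β arrays, so that the groups were apart by a small gap. The means were 1.35 ± 0.62 and 2.91 ± 0.94 (SD, n = 3), a difference of 1.57 on the log2 scale with an SE of 0.44 and a 95% interval of 0.60 to 2.53. That is a fold of 2.96, with an interval of 1.52 to 5.76. It did not pass the test across all miRNAs (limma, adjusted p = 0.0931), and the exact permutation test gave p = 0.1, the smallest that 3 against 3 arrays allow. The unadjusted limma p was 0.00441, the 69th smallest of 1457 miRNAs tested. The other tested member, miR-145-5p, passed the filter only through the TGF-β group, so no count over the members is read. Of all miRNAs tested, 3.98% were called at an adjusted p under 0.05 (2.61% higher and 1.37% lower), 13.9% had an unadjusted p under 0.05, and 8.79% were apart with TGF-β above. The median difference of all tested miRNAs was -0.013.

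One array decided much of this value. Without TGF-β replicate 2 the difference of miR-143-3p was 1.03 (limma, adjusted p = 0.290), and without TGF-β replicate 1 it was 1.90 (limma, adjusted p = 0.0972). The spread of miR-143-3p around its group means was 0.80 on the log2 scale, against 0.26 that limma's trend gave for probes of its brightness. TGF-β replicate 2 was also the array with the most detected probes, 1787 against 1531 to 1604 on the others, and the part of this in the miR-143-3p value was not tested. Over all 27 alternatives the adjusted p of miR-143-3p ran from 0.000937 to 0.992. Other scalings of the same signals moved the call while the size stayed within 1.56 to 1.70. So did a block for replicate number, at 1.57 (limma, adjusted p = 0.0369). The difference was 1.60 with median scaling (limma, adjusted p = 0.0193) and 1.70 with the deposited values (limma, adjusted p = 0.0343). With TGF-β replicate 2 also left out, an alternative chosen after seeing the data, these became 1.06 (limma, adjusted p = 0.171) and 1.05 (limma, adjusted p = 0.494).

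**Figure D3:**
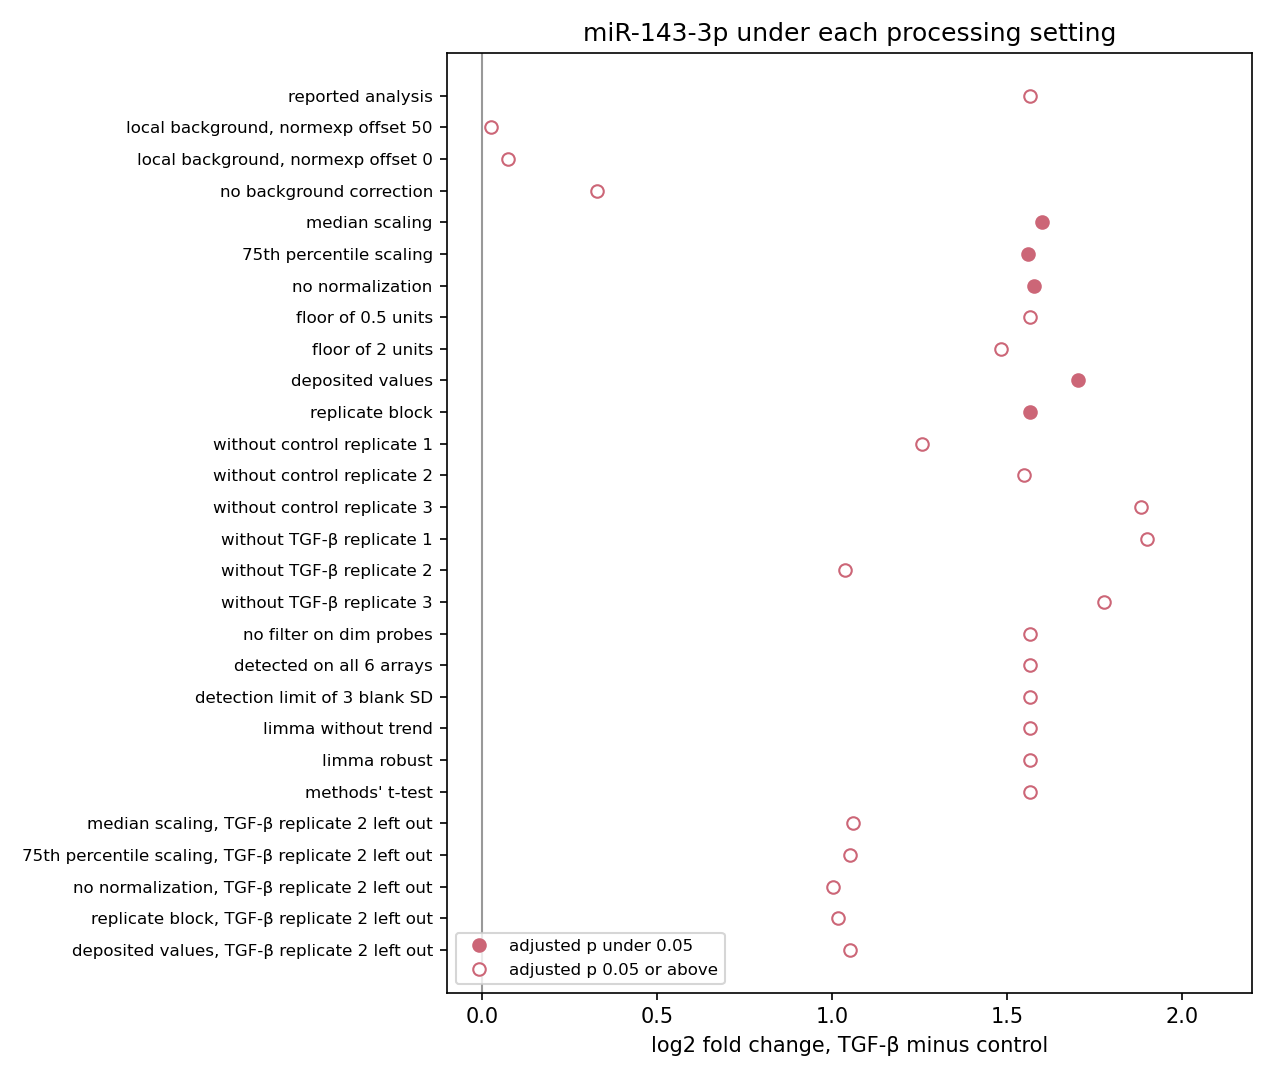
Difference of miR-143-3p between TGF-β and control cells on the log2 scale under the reported analysis and each alternative, with filled points where the limma (or, for the methods' t-test, that test's) adjusted p was under 0.05. All values are above 0 (several alternatives keep the same difference), and the smallest, 0.026 and 0.074, came from the scanner's local background.

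The scanner's own local background gave a smaller difference for miR-143-3p. The ratio of local background to signal at its spot was 1.05, 0.849 and 0.557 in the control arrays and 0.906, 0.589 and 0.724 in the TGF-β arrays. On control replicate 1 the surround was therefore brighter than the spot. With limma's normexp correction on these values the difference was 0.026 at an offset of 50 (limma, adjusted p = 0.990), and no miRNA on the array was called, while 34 of the 1457 tested had an unadjusted p under 0.05. The local background rose with the signal itself on bright spots, which is why the blank spots served as background here. Over the arrays its median ratio to the signal of such spots was 0.434 to 0.990. The miR-143-3p spot, at 19.7 to 35.3 units, was dim, and whether the same holds at its brightness was not tested.

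hsa-miR-145-5p (MIMAT0000437), the guide of the other hairpin, gave 20.6, 19.6 and 23.0 units in the control arrays. The TGF-β arrays gave 20.8, 21.0 and 23.9 units. In blank SDs these were 3.65, 0.827 and 2.19 under control conditions, against 2.18, 4.23 and 4.52 with TGF-β, so that control replicate 2 was not above the limit and the groups overlapped. It entered the test only through the TGF-β group, in which all 3 arrays were above the limit. On control replicate 2, 77 of the 320 blank spots were as bright or brighter, against 1 to 18 on the other arrays. The deposited values were 10 and 6 in control replicates 1 and 3, with none for replicate 2, and 6, 11 and 12 in the TGF-β arrays. The signal above the blank mean averaged 1.53 ± 0.944 units in control cells and 2.24 ± 0.820 units in TGF-β cells (SD, n = 3). On the normalized log2 scale the means were 0.64 ± 0.71 and 1.09 ± 0.50, a difference of 0.44 with an SE of 0.42 (limma, adjusted p = 0.729; exact permutation test, p = 0.4). Control replicate 2 stood at the floor of 1 unit, so the floor sets the size: the difference was 0.72 with a floor of 0.5 units and 0.093 with a floor of 2. No fold is read from it. In all 20 alternatives that gave a value, the difference was between 0.045 and 0.84 with no call.

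Whether the guide strands of this shared transcript changed unequally was compared array by array, as the log2 value of miR-145-5p minus that of miR-143-3p. Its mean was lower by 1.12 in TGF-β than in control cells (change of -1.12), with overlap between the groups (exact permutation test, 2-sided, p = 0.4). The comparison is limited by control replicate 2, where miR-145-5p was not above background and stood at the floor, and by the number of arrays, which allows no p under 0.1. The change was -0.85 with a floor of 0.5 units, -1.39 with a floor of 2 and -0.42 without control replicate 1. It was -1.43 without control replicate 2 and -0.58 without TGF-β replicate 2. The test does not show that the strands changed alike. With the local background its sign turned, to 0.042 at an offset of 50 and 0.18 at an offset of 0.

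The passenger strands stayed near the blank spots in both groups. hsa-miR-143-5p (MIMAT0004599) gave 18.2, 20.4 and 21.8 units in the control arrays and 21.3, 20.3 and 21.6 units in the TGF-β arrays. In blank SDs these were -0.035, 2.03 and 0.639 under control conditions, against 2.87, 2.87 and 1.14 with TGF-β. It was detected on 1 control and 2 TGF-β arrays, was above 3 SDs on none, and was not tested across all miRNAs. Its deposited values were 5 in control replicate 2 and 8 and 7 in TGF-β replicates 1 and 2. The signal above the blank mean was 0.577 ± 0.648 units in control cells and 1.39 ± 0.562 units in TGF-β cells (SD, n = 3), and the groups overlapped (exact permutation test, 2-sided, p = 0.2). Between 6 and 155 of the 320 blank spots were at least as bright on each array.

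hsa-miR-145-3p (MIMAT0004601) gave 18.1, 19.5 and 23.2 units in the control arrays and 20.1, 19.5 and 21.1 units in the TGF-β arrays. In blank SDs these were -0.24, 0.565 and 2.45 under control conditions, against 1.07, 1.38 and 0.281 with TGF-β. Only control replicate 3 passed the limit, with the single deposited value of 6, and no TGF-β array did. The signal above the blank mean was 0.693 ± 1.06 units in control cells and 0.539 ± 0.302 units in TGF-β cells (SD, n = 3), with overlap (exact permutation test, 2-sided, p = 0.9). Since neither group was detected as a whole, no fold is given for miR-145-3p, nor for miR-143-5p.

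The seed of miR-143-3p is carried by other probes on the array, which are shown because their spots could be set beside it. The seed is in capitals, from the same RefSeq table.
miR-143-3p: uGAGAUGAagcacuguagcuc
miR-4770: uGAGAUGAcacuguagcu
miR-6088: aGAGAUGAagcgggggggcg
Each shares a longest run of 10 bases with miR-143-3p. Outside that run miR-4770 also matches the start of miR-143-3p, seed included, while in miR-6088 the run itself covers the seed. Seeds could be compared for the 2264 of 2565 probes with a mature entry in the table, and among these no seed match was found for the remaining 3 members. The other 301 probes were not compared. One of them is miR-5195-3p, which is commonly grouped with miR-145-5p as a miRNA of the same seed. It was named after its values were seen, was detected on all 6 arrays and differed by -0.24 with an SE of 0.21 (limma, adjusted p = 0.709). miR-6088 was detected on all 6 arrays, at 43.7 to 88.2 units in control cells and 43.6 to 79.2 units in TGF-β cells, and the groups overlapped. Its difference was -0.17 with an SE of 0.39 (limma, adjusted p = 0.912) and a 95% interval of -1.02 to 0.68. miR-4770 was -0.59 to 2.02 blank SDs above the blank mean, was detected on 1 control array and no TGF-β array, and was not tested. Probe sequences were not used here, so cross-hybridization between these miRNAs was not tested.

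The miRNA genes nearest to the pair, within 1 Mb on the same chromosome, were MIR584 at chr5:149062313-149062409 on the minus strand inside SH3TC2 and MIR378A at chr5:149732825-149732890 on the plus strand inside PPARGC1B, the gene of a transcriptional coactivator. They lie 366509 and 302092 bases away. Of their 4 mature strands, 3 were tested and 0 were called with limma at an adjusted p under 0.05 (0 also had an unadjusted p under 0.05), against 3.98% and 13.9% of all tested miRNAs, so that with 3 tested these counts are near the background. miR-378a-5p differed by 0.40 with an SE of 0.29 (limma, adjusted p = 0.624). miR-378a-3p differed by -0.13 with an SE of 0.093 (limma, adjusted p = 0.584). miR-584-5p differed by -0.31 with an SE of 0.24 (limma, adjusted p = 0.649), and its TGF-β arrays were all below the control arrays after normalization, as for 10.1% of all tested miRNAs, while its signals above the blank mean overlapped. miR-584-3p was detected on 1 TGF-β array alone.

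**Figure D4:**
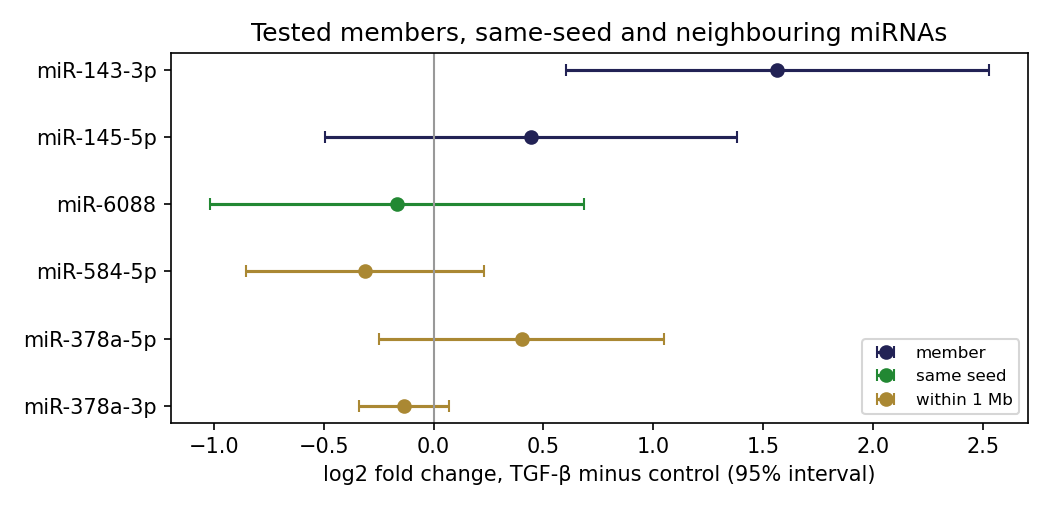
Difference between TGF-β and control cells on the log2 scale, with its 95% interval from limma, for the 2 tested members, the tested miRNA whose table entry shares a member's seed and the 3 tested miRNAs of genes within 1 Mb. Only the interval of miR-143-3p, 0.60 to 2.53, lies clear of 0, and it did not pass after adjustment. That interval rests on a spread that limma drew toward the smaller one of probes of similar brightness. miR-145-5p was tested only because all 3 TGF-β arrays detected it, and its size is set by the floor.

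The members were set beside lists of miRNAs from the cell types in which they are usually found. Of 12 stromal and mesenchymal miRNAs, 10 were tested and detected on all 6 arrays. In this list 2 rose (2.61% of all tested miRNAs did) and 1 fell (1.37% did): miR-100-5p rose by 0.75 (SE 0.055, limma, adjusted p = 1.03e-05) and miR-125b-5p by 0.77, and miR-10b-5p fell by 0.38 (limma, adjusted p = 0.00294). The other 7 did not pass, among them miR-199a-5p and miR-214-3p, markers of fibroblast-like cells, and the median of the list was 0.0077. Of 8 muscle miRNAs, 5 were tested and 3 fell (miR-1-3p, miR-133a-3p and miR-133b), against 1.37% of all tested miRNAs, with a list median of -1.47. The other 2 tested, miR-206 (0.045) and miR-499a-5p (-0.21), did not pass. miR-208a-3p and miR-208b-3p of cardiac muscle were detected on no array. All arrays carried RNA of the Panc-1 line, so a list does not stand for a cell population in these samples. In bulk RNA, fewer Panc-1 cells with a miRNA and less of it per cell cannot be told apart.

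Lists for carcinoma cells and for other tissues were read in the same way. All 13 miRNAs common in adherent carcinoma cells, such as miR-21-5p, which is also on the stromal list, were detected on all 6 arrays, at 304 to 38078 blank SDs above the blank mean. In this list 1 rose (miR-23a-3p, 0.29) and 1 fell (miR-16-5p, -0.30), against 2.61% and 1.37% of all tested miRNAs, and the median was 0.033. The 9 miRNAs of blood cells, endothelium and liver, which an epithelial line would largely lack, spanned -0.27 to 215 blank SDs. Each of the 9 passed the detection limit on at least 1 array, so passing it does not by itself set the members apart from this list. Of the 9, 4 were detected on all 6 arrays, 6 were tested and 1 fell (miR-126-3p of endothelium, -0.32, limma, adjusted p = 0.0411), against 1.37% of all tested miRNAs. The median of the 4 was -0.15. The other 2 tested, miR-451a and miR-223-3p, passed only through the TGF-β group and are left out of it.

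The log2 profiles over the 6 arrays most like that of miR-143-3p, each centred on its own mean, were those of miR-2355-3p, miR-455-5p and miR-100-3p, out of 1281 other miRNAs detected on all arrays. Their root mean square differences from it were 0.518, 0.544 and 0.570 on the log2 scale. The difference between groups is part of these profiles and so part of the choice, and their differences are a description with no test: 1.72 for miR-2355-3p, 0.86 for miR-455-5p and 1.11 for miR-100-3p on the log2 scale. The other 3 members were not detected on all arrays and were not compared in this way.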

How the data were processed

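Total RNA of Panc-1 cells was labelled with Cy5 and hybridized to Toray 3D-Gene miRNA arrays, 3 per group. Per spot, the authors deposited median intensity and local background intensity from the scanner, not normalized, and a table of processed intensity values. That table was rebuilt as blank-mean subtraction, omission of values not exceeding the blank mean by 2 SD, and scaling of each array's detected median to 25. Scale and centring are therefore known. Rebuilt values, left unrounded, differed from the deposited whole numbers by at most 0.500 units. The study's text names no array normalization or array test.

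Here the trimmed blank mean was subtracted, a floor of 1 unit set, and log2 values quantile normalized over 2565 miRNA probes (3 flagged spots set missing). The floor compresses differences of dim probes. Values were tested in R 4.3.3 with limma 3.58.1 (lmFit, eBayes with trend), Benjamini-Hochberg over the 1457 miRNAs that all arrays of 1 group or both detected, called at an adjusted p under 0.05. Exact permutation tests were 2-sided. The procedure was tested on simulated data. Alternatives covered background, scaling, floor, filter, each array left out, replicate block, limma settings and the methods' t-test. Figures used Python 3.11.15 and matplotlib 3.10.9.

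Named miRNAs were the members, same-seed probes, genes within 1 Mb, the 3 nearest profiles, and up to 4 per list (those beyond that were named after their values were seen). Members and lists were chosen with earlier results of these data known. Slide was read from the deposited array identifiers. Gene positions are from RefSeq GRCh38.p14. The paper's PCR, reporter and vesicle experiments were not analysed here.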

Additional observations from a re-analysis of the deposited data

How the results depend on the processing

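miR-143-3p kept its direction in all 27 alternatives, a count that includes those chosen after seeing the data. Several alternatives change only the filter or the test and keep the same difference, so the shared direction is no separate support. The limma threshold was passed in 5. These were median scaling (1.60, adjusted p = 0.0193), 75th percentile scaling (1.56, 0.0204), no normalization (1.58, 0.000937), the deposited values (1.70, 0.0343) and the replicate block (1.57, 0.0369). With TGF-β replicate 2 also left out, chosen after seeing the data, they gave 1.06, 1.05, 1.00, 1.05 and 1.01, with limma adjusted p from 0.171 to 0.567 and no call. The deposited values moved the median of all miRNAs to 0.11, against -0.013. Leaving out 1 array at a time gave 1.03 to 1.90. The replicate numbers were not counted as pairs. Deviations of same-numbered arrays correlated at 0.129, 0.111 and -0.027, beside a limit of 0.1 set for this check, and 2 of 3 control arrays correlated best with their own number. These values do not settle whether the numbers are pairs. The block gave 60 called miRNAs against 58. The cause of these shifts was not tested.

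The log2 difference of miR-143-5p, not detected as a whole in either group, was 0.88 with a floor of 0.5 units, against 0.33. The floor sets both values, and neither is a fold. The 4 members had 8 detections at 3 blank SDs, against 15. miR-145-5p minus miR-143-3p reversed to 0.042 and 0.18 with the local background at offsets of 50 and 0, and was -1.59 to -0.42 with 1 array left out. Called miRNAs, 58 (38 higher, 20 lower), became 0 and 0 with the local background (34 and 34 at an unadjusted p under 0.05), 35 without normalization (27 higher, 8 lower), 31 with the deposited values (27 higher, 4 lower), 19 without a filter, 32 without the trend, 17 with the methods' t-test and 25 to 51 with 1 array left out (25, 33 and 35 without TGF-β replicate 2, TGF-β replicate 3 and control replicate 2). miR-145-5p has no value where detection on all 6 arrays or a limit of 3 blank SDs is required, and miR-145-3p none in the deposited TGF-β values.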
